A study of Mus musculus with 800 samples.

Results

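The genes described here encode proteins of oxidative phosphorylation that are made from the nuclear genome: subunits of respiratory complexes I to IV and of the ATP synthase (complex V), with assembly factors of complex I. They were taken by name, as every gene of the table whose symbol starts with Nduf, Uqcr, Atp5 or Cox4 to Cox8, or is Sdha, Sdhb, Sdhc or Sdhd. Pseudogenes and genes on the X and Y chromosomes were left out. The rule found 90 of the 32285 genes in the table: 36 subunits and 8 assembly factors of complex I, 4 genes of complex II, 8 of complex III, 17 of complex IV and 17 of complex V. These groups follow the symbol alone, so the 8 assembly factors are those named Ndufaf, and not every gene in a group need encode a subunit. Ndufa4 was counted with complex I by its name, although its protein is known as a subunit of complex IV. All 90 genes had at least 1 count in the 800 nuclei.

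The measurements are read counts of single nuclei from C57Bl/6J mice that carried an adeno-associated virus with the brain-penetrant PHP.eB capsid. Each virus expressed SYFP2, a yellow fluorescent protein tied to histone H2B, and YFP-positive nuclei were sorted 3 to 4 weeks after young adult mice had received 5e11 viral genomes each. The labels give 20 vectors with 40 nuclei each: the promoters hSyn1 and CMV, the interneuron enhancers DLX2.0 and hI56i, and 16 enhancers known by a code that begins with AiE. All nuclei are labelled as anterior lateral motor cortex, all come from injected mice, and no label names an animal, so each vector was treated as 1 sample. The series' design text also names striatum and primary visual cortex as sorted regions, and which nuclei came from which region is not given in the sources used here. Differences between striatal and other classes therefore cannot be told apart from differences between dissections. The same holds between the other classes, since each of them may mix regions. The spread and the p-values below are thus over vectors, and part of that spread may be technical. Every class of nuclei holds only nuclei in which a vector was active enough to be sorted.

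Oxidative phosphorylation couples the transfer of electrons from NADH (through complex I) and succinate (through complex II) to oxygen with the pumping of protons, and complex V uses the proton gradient to make ATP. Neurons obtain most of their ATP in this way, and fast-spiking interneurons that contain parvalbumin are known for a high density of mitochondria. Some subunits exist as isoforms from separate genes, such as Cox6a1, which most tissues use, and Cox6a2, the form of heart and skeletal muscle. The values here are RNA in the nucleus and say nothing direct of protein. Exons of 31 of the 90 genes overlap another gene, 28 of them on the opposite strand, among them Ndufb2, Ndufaf3, Cox4i1 and Atp5a1. Many have processed pseudogenes or close paralogs, and how the authors counted reads that match several places is not given in the sources used here.

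Nuclei were classed by clustering that used none of these 90 genes nor the other gene lists below, and 698 nuclei with at least 1000 detected genes were kept. The classes are GABAergic-like (278 nuclei), striatal projection neuron-like (160), glutamatergic-like (110), astrocyte-like (100) and oligodendrocyte-like (50). Within them, 98 nuclei were Pvalb-like, 112 Sst-like, 92 Drd1-like and 64 Drd2-like by their own marker levels, which is a cut on a score: 20 Pvalb-like, 12 Drd1-like and 2 Drd2-like nuclei lay near it, with a lead of their best subclass under 2 on the log2 scale. The striatal class goes against the cortical label: it held the striatal markers Rgs9, at 1269 CPM (counts per 1e+06 counts of the library) in Drd1-like nuclei against 17.8 CPM in glutamatergic-like nuclei, and Ppp1r1b, at 802 against 54.3 CPM. A nucleus's own markers gave the class of its cluster for 659 of the 698 nuclei. Depth ran from 70 to 901264 counts with a median of 260170.5, and no 2 nuclei had identical values. The 102 nuclei below the gene minimum held these genes at a pooled 10443 CPM.

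Summed over the 90 genes, Pvalb-like nuclei stood above every other class, at 14232 ± 1466 CPM (SD, n = 15 vectors, with at least 3 nuclei of the class in each). The lowest vector was at 11371, the median at 14454 and the highest at 16653 CPM. Sst-like nuclei, the other large interneuron group, had 11014 ± 1425 CPM (n = 14) and astrocyte-like nuclei 10843 ± 701 CPM (n = 8). Drd1-like nuclei were at 8848 ± 1467 CPM (n = 10) and Drd2-like nuclei at 8350 ± 1324 CPM (n = 10). The lowest sums belonged to oligodendrocyte-like nuclei, at 7874 ± 1262 CPM (n = 7), and glutamatergic-like nuclei, at 7711 ± 3414 CPM (n = 12). In this order only the steps from Pvalb-like to Sst-like and from astrocyte-like to Drd1-like nuclei exceeded the SD of both neighbours.

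The glutamatergic-like spread came from a single vector. AiE0682h stood at 17843 CPM from 6 nuclei, against a median of 6523 CPM over the class, and the mean without it was 6790 CPM. Its highest nucleus had 45309 CPM in these genes, and the highest content of mitochondrially encoded RNA among the 6 was 66123 CPM, against a median of 283 CPM.

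**Figure D1:**
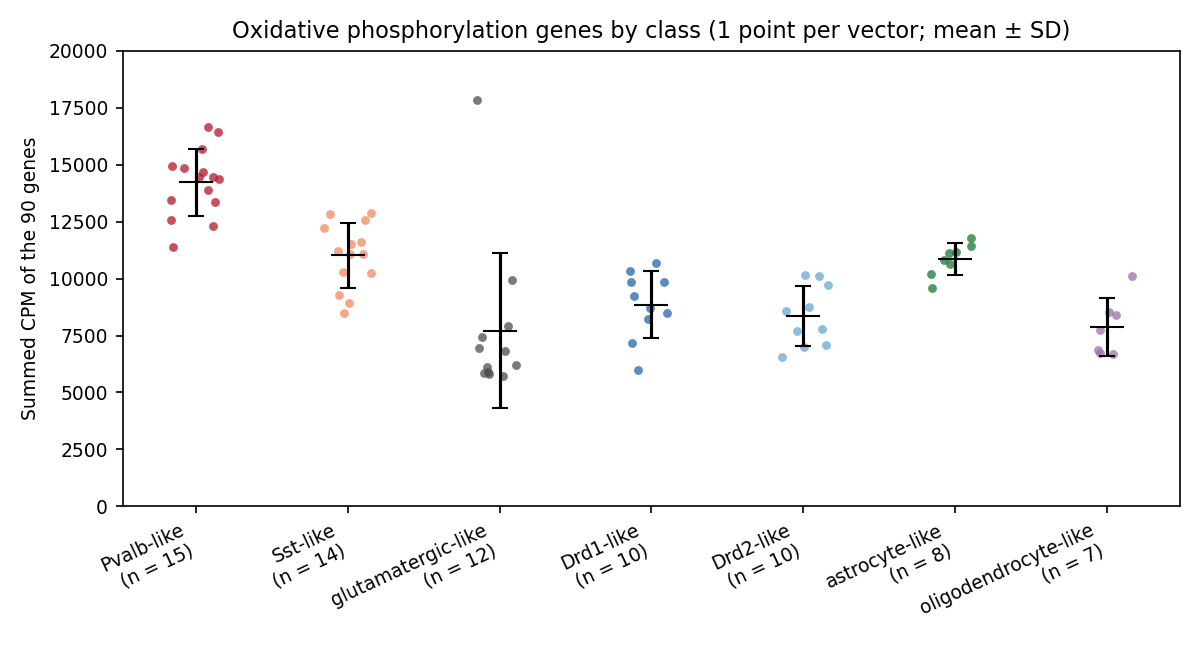
Summed level of the 90 nuclear-encoded oxidative phosphorylation genes in CPM (y axis, starting at 0) for each cell class (x axis). Each point is the pooled nuclei of a class in 1 vector and the bars give the mean and SD over vectors. The Pvalb-like points run from 11371 to 16653 CPM, and the glutamatergic-like point near 17843 CPM is AiE0682h.

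The number of these genes detected per nucleus was also highest in Pvalb-like nuclei, followed by Sst-like nuclei, while the order of the other neurons differed from that of the sums. After every nucleus had been thinned to 150000 counts, which left out 35 shallower nuclei, the median was 46 genes in Pvalb-like, 38 in Sst-like, 32 in Drd2-like, 30 in glutamatergic-like and 29 in Drd1-like nuclei (46, 39, 33, 31 and 29.5 before thinning). Astrocyte-like nuclei had 19 and oligodendrocyte-like nuclei 13. Those glial nuclei also had the fewest genes of any kind, with medians of 1366 and 1085 against 3232 in Pvalb-like nuclei, so the share per 100 detected genes was 1.48 in astrocyte-like, 1.46 in Pvalb-like and 1.03 in glutamatergic-like nuclei.

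All complexes took part in the Pvalb-like level. Complex I subunits summed to 4722 ± 502 CPM there, against 3844 ± 795 in Sst-like and 2768 ± 847 in glutamatergic-like nuclei. Complex V summed to 4576 ± 646 CPM against 3491 ± 783 and 2136 ± 976 CPM. For complex III the values were 1466 ± 540, 972 ± 198 and 715 ± 325 CPM, and for complex II 893 ± 508, 610 ± 228 and 361 ± 226 CPM. The Pvalb-like complex II mean includes a vector with Sdha at 2562 CPM, against a median of 381 CPM. Complex IV differed in its order: astrocyte-like nuclei were highest, at 2153 ± 356 CPM, ahead of Pvalb-like nuclei at 1915 ± 396 CPM. That order rested on Cox6c, at 608 ± 159 against 288 ± 186 CPM, a wider gap than that between the sums. The complex I assembly factors ranged over the neuronal classes from 393 ± 92.0 CPM in glutamatergic-like to 659 ± 276 CPM in Pvalb-like nuclei. They were lowest in oligodendrocyte-like nuclei, at 213 ± 126 CPM.

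Gene lists that were not part of the rule help to place these sums. The 83 cytosolic ribosomal protein genes lay within a narrow band, from 2347 ± 543 CPM in Drd2-like to 3193 ± 436 CPM in Sst-like nuclei, and were not highest in Pvalb-like nuclei (2916 ± 363 CPM). The 19 genes listed for the citrate cycle and pyruvate dehydrogenase, which supply the chain with electrons, include the cytosolic Mdh1. They were highest in Pvalb-like nuclei at 5079 ± 982 CPM and lowest in oligodendrocyte-like nuclei at 1913 ± 618 CPM. Cytochrome c with the mitochondrial carriers (11 genes) reached 3607 ± 752 CPM in Pvalb-like and 1458 ± 628 CPM in glutamatergic-like nuclei. The 13 mitochondrially encoded genes were low and uneven, at 181 ± 206 CPM in Pvalb-like, 1746 ± 886 CPM in astrocyte-like and 1686 ± 5151 CPM in glutamatergic-like nuclei, the latter with a median of 155 CPM.

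Gene by gene, 83 of the 90 had a mean of at least 5 CPM over the compared classes. Of these, 52 (62.7%) were highest in Pvalb-like nuclei among 7 classes, while 18.05% of all 12222 genes past that minimum were. Lowest in oligodendrocyte-like nuclei were 40 of the 83 (48.2%), against 34.6% of all genes, and 24 were both. The remaining 7 genes were Cox4i2, Cox6b2, Cox7a1, Cox7b2, Cox8b, Cox8c and Ndufa4l2, tissue-restricted isoforms or paralogs with levels near 0 in most classes. Per kilobase of exon the most abundant over all 800 nuclei were Cox8a at 408, Cox6a1 at 384, Cox6b1 at 218, Atp5b at 209 and Uqcr10 at 206 CPM per kb.

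**Figure D2:**
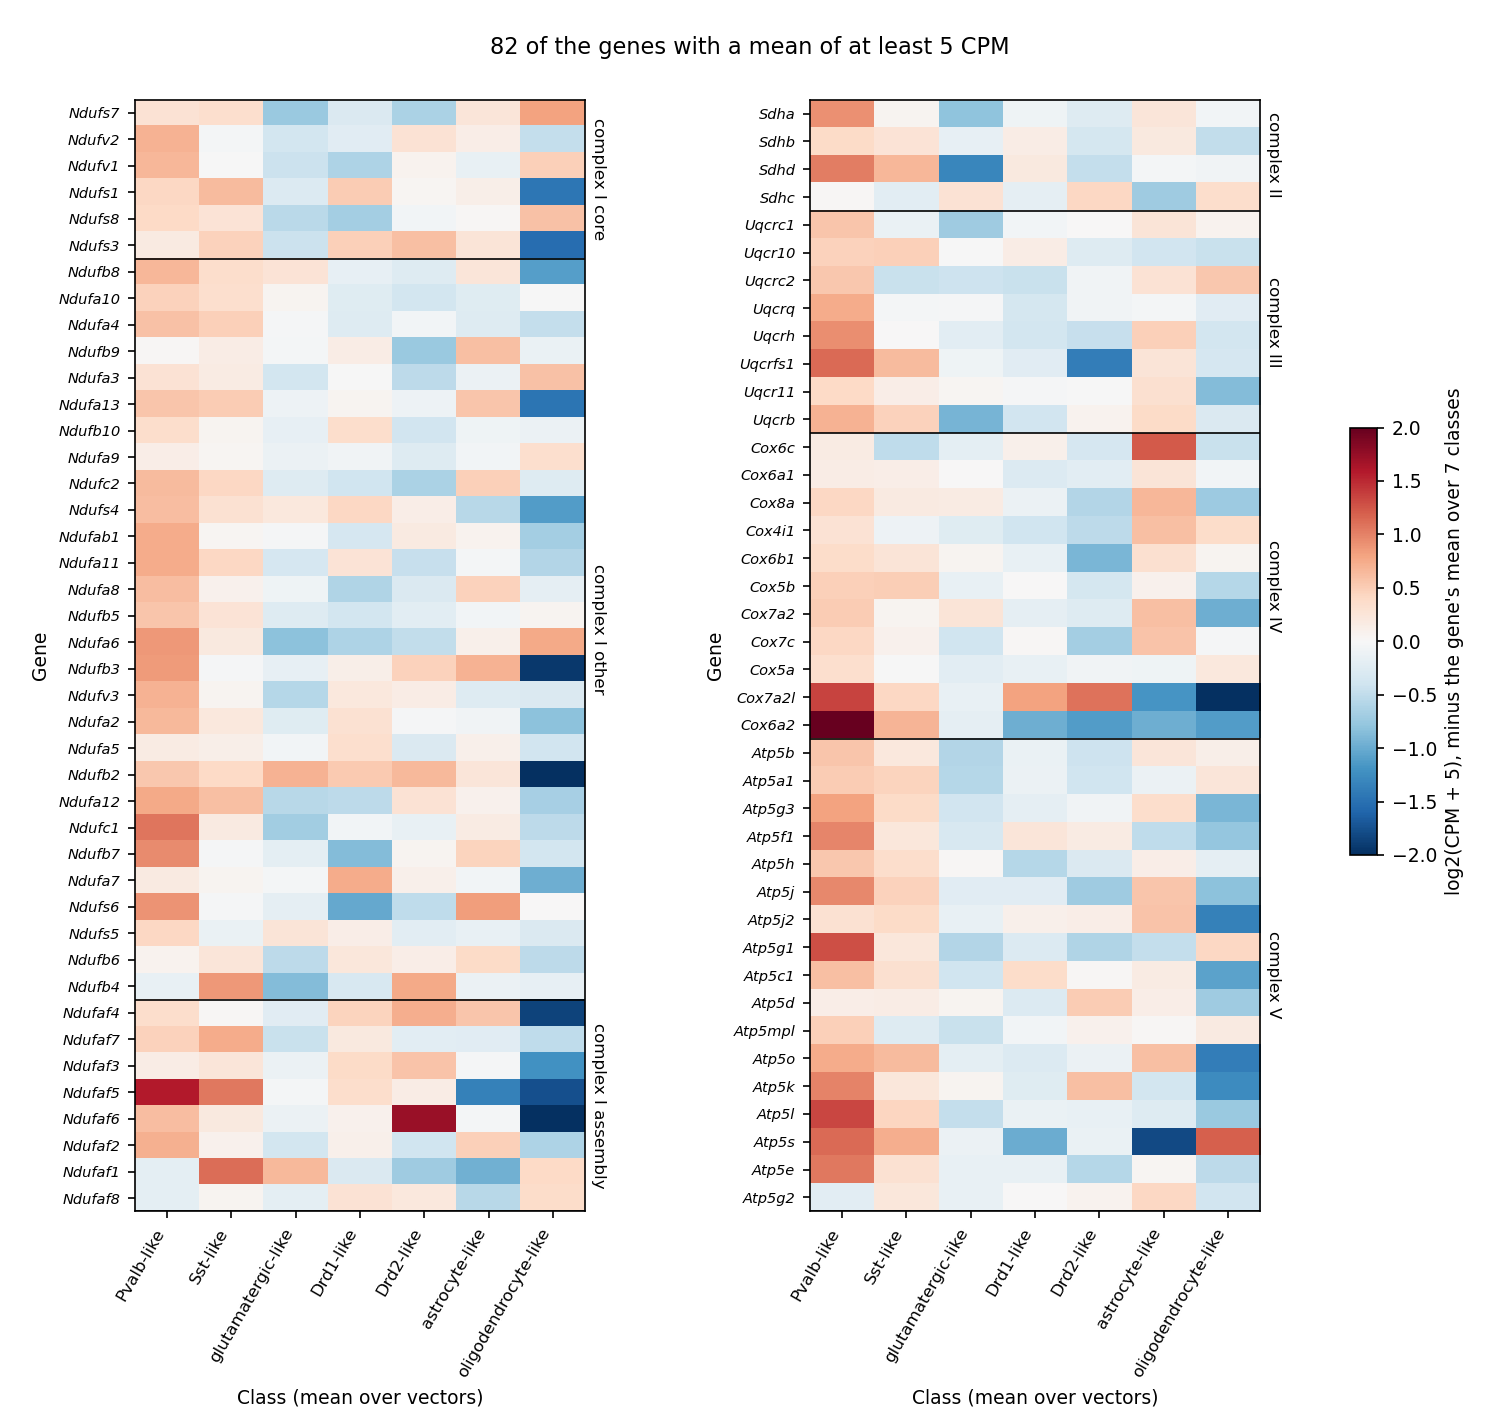
Level of 82 of the 83 genes with a mean of at least 5 CPM (rows, grouped by complex) in 7 classes (columns), as log2(CPM + 5) minus the gene's own mean over the classes. Red is above and blue below that mean. Reds gather in the Pvalb-like column, Cox6c stands out in the astrocyte-like column, and blues gather in the oligodendrocyte-like column.

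Within complex I the leading genes followed different orders. Ndufv2, a core subunit of the NADH-binding module, was highest in Pvalb-like nuclei at 289 ± 165 CPM and lowest in oligodendrocyte-like nuclei at 126 ± 75.7 CPM. Ndufa10, an accessory subunit, ranged from 124 ± 83.3 CPM in Drd2-like to 224 ± 115 CPM in Pvalb-like nuclei. Ndufs7, the core subunit next to the site of quinone reduction, was highest in oligodendrocyte-like nuclei at 359 ± 107 CPM, against 251 ± 208 CPM in Pvalb-like and 119 ± 61.0 CPM in glutamatergic-like nuclei. Among assembly factors, Ndufaf4 was lowest in oligodendrocyte-like nuclei at 38.4 ± 57.7 CPM and between 130 ± 45.3 and 256 ± 137 CPM in the other 6 classes. Ndufaf7, a methyltransferase that acts on a core subunit, ranged from 89.2 ± 113 CPM in oligodendrocyte-like to 219 ± 232 CPM in Sst-like nuclei, and Ndufaf3 from 26.9 ± 48.0 to 105 ± 81.0 CPM, the latter in Drd2-like nuclei.

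Complex II, which also belongs to the citrate cycle, has 4 subunits. Sdha, the flavoprotein that oxidises succinate, had 501 ± 580 CPM in Pvalb-like and 148 ± 129 CPM in glutamatergic-like nuclei. The Pvalb-like median was 381 CPM and the highest vector stood at 2562 CPM. The iron-sulphur subunit Sdhb ranged from 107 ± 103 CPM in oligodendrocyte-like to 201 ± 150 CPM in Pvalb-like nuclei. Of the 2 membrane anchors, Sdhd had 149 ± 128 CPM in Pvalb-like, 115 ± 90.5 CPM in Sst-like and 25.7 ± 33.1 CPM in glutamatergic-like nuclei. Sdhc did not share that order, with 51.4 ± 74.6 CPM in glutamatergic-like and 42.2 ± 32.2 CPM in Pvalb-like nuclei.

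In complex III, the core protein gene Uqcrc1 was at 435 ± 226 CPM in Pvalb-like and 177 ± 122 CPM in glutamatergic-like nuclei. Uqcrfs1, the Rieske iron-sulphur protein, ranged widely, from 28.4 ± 40.2 CPM in Drd2-like to 186 ± 105 CPM in Pvalb-like nuclei. Uqcr10, a small accessory subunit, ranged from 74.0 ± 72.7 CPM in oligodendrocyte-like to 144 ± 74.6 CPM in Sst-like nuclei. In complex V, the catalytic beta subunit Atp5b had 1210 ± 469 CPM in Pvalb-like, 949 ± 383 CPM in Sst-like and 543 ± 372 CPM in glutamatergic-like nuclei. Atp5a1, the alpha subunit, ranged from 244 ± 121 CPM in glutamatergic-like to 522 ± 275 CPM in Pvalb-like nuclei.

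The c subunit of the ATP synthase ring is encoded by 3 genes that give the same mature protein. Atp5g3 was the most abundant of them in each of the 7 classes, from 186 ± 181 CPM in oligodendrocyte-like to 621 ± 201 CPM in Pvalb-like nuclei. Atp5g1 reached 293 ± 269 CPM in Pvalb-like nuclei, above 137 ± 82.6 CPM in Sst-like nuclei and 75.1 ± 44.2 CPM in Drd2-like nuclei. Atp5g2 stayed between 5.66 ± 5.93 and 13.5 ± 9.59 CPM. These counts are not divided by transcript length, so the order of the 3 genes is one of reads.

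Genes of complex IV had their highest levels in different classes. Cox6c was highest in astrocyte-like nuclei at 608 ± 159 CPM, against 288 ± 186 CPM in Pvalb-like and 180 ± 92.9 CPM in Sst-like nuclei. Cox8a was at 307 ± 84.3 CPM in astrocyte-like and 115 ± 72.4 CPM in oligodendrocyte-like nuclei, and Cox4i1 at 276 ± 158 CPM in astrocyte-like and 124 ± 78.8 CPM in Drd2-like nuclei. Cox6b1 ranged from 66.5 ± 94.8 CPM in Drd2-like to 170 ± 85.2 CPM in Pvalb-like nuclei, and Cox7a2 from 50.3 ± 52.2 CPM in oligodendrocyte-like to 161 ± 140 CPM in astrocyte-like nuclei. Cox7a2l was at 58.1 ± 42.2 CPM in Pvalb-like nuclei, 5.88 ± 12.03 CPM in astrocyte-like nuclei and 0 in all 7 oligodendrocyte-like sums. Ndufa4 ranged from 100 ± 129 CPM in oligodendrocyte-like to 216 ± 140 CPM in Pvalb-like nuclei.

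The muscle isoform gene Cox6a2 (ENSMUSG00000030785) lies on chromosome 7 of mm10 from 128205435 to 128206387, minus strand, in the GENCODE annotation. Over the 15 vectors with Pvalb-like nuclei it had 135 ± 81.6 CPM, with the lowest vector at 20.3, the median at 135 and the highest at 334 CPM. No vector was at 0. In Sst-like nuclei 9 of 14 vectors were at 0 and the mean was 12.4 ± 21.8 CPM. Glutamatergic-like nuclei had 4.61 ± 10.8 CPM with 10 of 12 vectors at 0, Drd1-like nuclei a count in 1 of 10 vectors, astrocyte-like nuclei in 1 of 8, and Drd2-like and oligodendrocyte-like nuclei none in 10 and 7 vectors. The Pvalb-like and Sst-like ranges overlapped, while 10 of 12 glutamatergic-like vectors lay below every Pvalb-like vector.

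By nucleus, 46 of 98 Pvalb-like nuclei had a Cox6a2 count (46.9%, Clopper-Pearson 95% interval 36.8 to 57.3%, counting error only). Among Sst-like nuclei it was 10 of 112 (8.93%, 4.37 to 15.8%), among glutamatergic-like nuclei 2 of 110 (1.82%, 0.221 to 6.41%) and among striatal projection neuron-like nuclei 1 of 160 (0.625%, 0.0158 to 3.43%). None of 50 oligodendrocyte-like nuclei had one, which allows a share of up to 6% when 3 counts are taken as the limit, or 7.11% by the same interval. GABAergic-like nuclei left without a subclass name had it in 12 of 44 (27.3%, 14.96 to 42.8%). An exon of Itgad on the opposite strand overlaps Cox6a2 by 70 bases, and since this kind of library does not mark strand their reads cannot be told apart there. Itgad itself was at 2.48 CPM in Pvalb-like nuclei, with 11 of 15 vectors at 0.

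The general isoform Cox6a1 showed no such preference. It was at 255 ± 104 CPM in Pvalb-like, 252 ± 105 in Sst-like, 230 ± 310 in glutamatergic-like, 189 ± 84.3 in Drd1-like, 198 ± 74.7 in Drd2-like, 274 ± 148 in astrocyte-like and 221 ± 69.3 CPM in oligodendrocyte-like nuclei. The highest and the lowest mean differed by less than the astrocyte-like SD. Of the 98 Pvalb-like nuclei 86 had a Cox6a1 count and 3 had neither isoform, and 37 of the 46 with Cox6a2 also had Cox6a1. The 4 genes named for levels over 76 class sums like Cox6a2, of 12228 compared by Spearman's rho, were 6330411D24Rik (0.81), Pvalb (0.76), Mybpc1 (0.75) and A530058N18Rik (0.75). Pvalb was a marker used to name the subclass, and sums of the same vector share libraries.

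**Figure D3:**
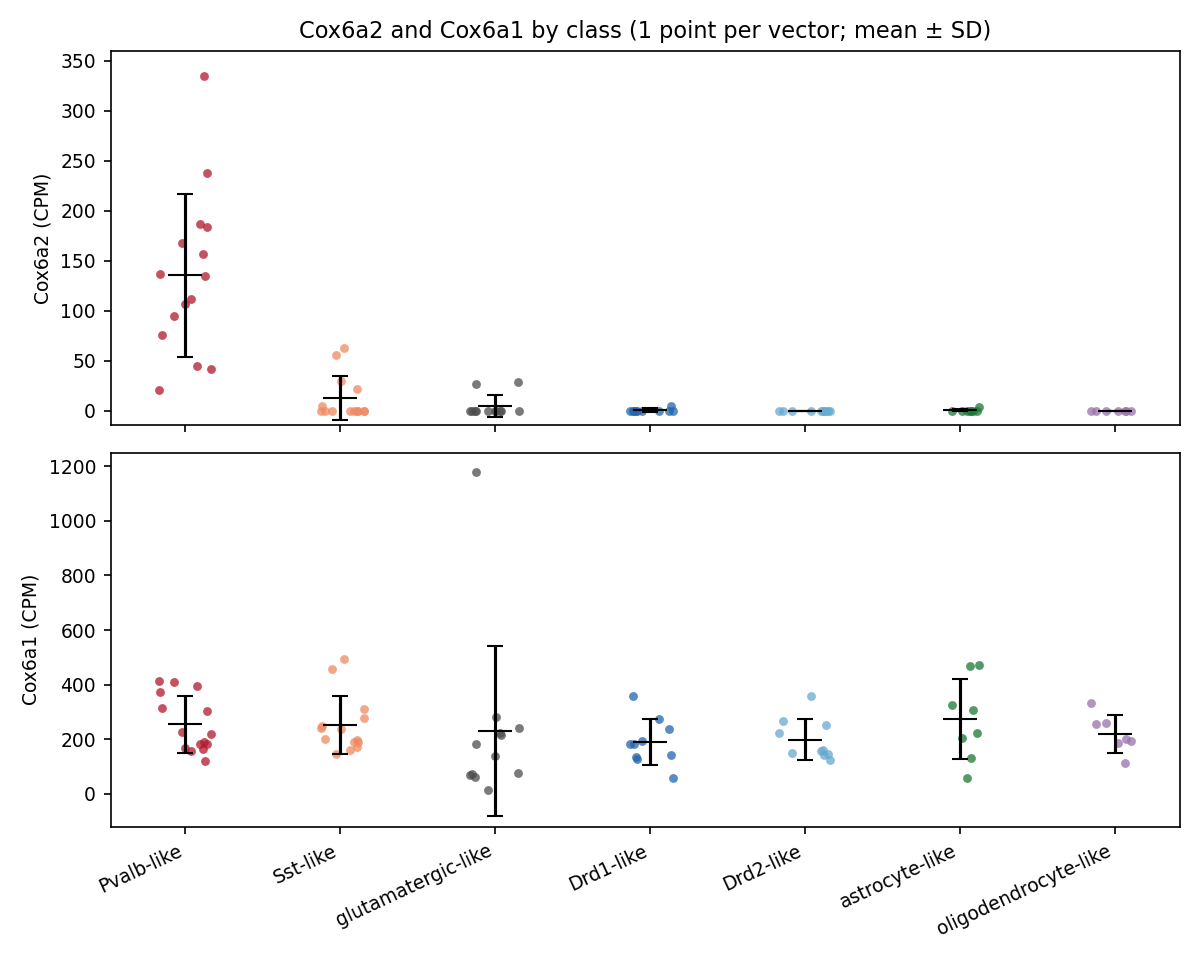
Level of Cox6a1 and Cox6a2 in CPM (y axes, each on its own scale) by class (x axes), with 1 point per vector and bars for mean and SD, whose lower ends can pass below 0. Cox6a1 has similar means in all classes, from 189 to 274 CPM, and Cox6a2 is at 135 CPM in Pvalb-like nuclei and at or below 12.4 CPM in the other 6 classes.

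Classes were then compared within vectors, on counts summed per class, by edgeR's quasi-likelihood test with the vector as a block and Benjamini-Hochberg adjustment over all genes tested, at a threshold of 0.05. The GABAergic-like class and the pooled neurons enter several of these comparisons, so the comparisons are not independent of each other.

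GABAergic-like against glutamatergic-like nuclei asked how inhibitory and excitatory neurons differ, with the region of each nucleus not known. Over 12 vectors, 81 of 84 genes with a mean of at least 5 CPM had the higher mean in GABAergic-like nuclei (96.4%, against 56.5% of all genes), and the sum was higher in 11 of 12 vectors, by 0.77 ± 0.56 on the log2 scale. The exception was AiE0682h. Without the 10 nuclei in which mitochondrially encoded RNA exceeded 1% of counts, the sum was higher in 12 of 12 vectors, by 0.87 ± 0.37. Malat1, an abundant nuclear RNA that lowers every other CPM where it is high, was lower in GABAergic-like nuclei in 12 of 12 vectors, with a mean log2 ratio of -0.59 ± 0.26. Without it and the mitochondrially encoded genes the log2 ratio of the sum was 0.64.

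By test, 2 of 83 genes were higher in GABAergic-like nuclei and none was lower, where 2.96% of the 9146 genes tested passed in either direction and 1.66% were higher. An unadjusted p under 0.05 was reached by 9 of the 83, all higher, and by 11.4% of all genes in either direction; DESeq2 called 15 higher, where it called 17.4% of genes. Over the 83 the median log2 fold change was 0.85, and over all genes tested it was 0.38. Cox6a2 had 55.1 ± 30.9 CPM in GABAergic-like sums (lowest 10.6, median 44.2, highest 102) and 4.61 ± 10.8 CPM in glutamatergic-like sums, and was higher in 12 of 12 vectors. Its fitted log2 fold change was 8.69 ± 1.80 (SE; edgeR adjusted p = 0.0046), a size that goes with 10 of 12 glutamatergic-like sums at 0. The ranges overlapped, since the highest glutamatergic-like sum was 28.8 CPM.

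Sdhd (ENSMUSG00000000171; chromosome 9, 50596357 to 50603812, minus strand) had 152 ± 44.0 CPM in GABAergic-like sums, from 76.9 to 220 with a median of 160 CPM. In glutamatergic-like sums it had 25.7 ± 33.1 CPM, from 0 to 105 with a median of 16.1 CPM. It was higher in 12 of 12 vectors, with a log2 fold change of 4.29 ± 1.20 and an edgeR adjusted p of 0.0484. 14 of 21 alternatives lost that call, among them 10 of the 12 in which a vector was left out, with adjusted p-values from 3.8e-07 to 0.535.

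Others were higher in most vectors without passing. Ndufa12 had 90.2 ± 33.6 against 33.96 ± 34.1 CPM and was higher in 12 of 12 vectors (edgeR adjusted p = 0.387), so 3 genes with Cox6a2 and Sdhd had that pattern, which 0.894% of genes showed. Atp5b had 1136 ± 419 against 543 ± 372 CPM (10 of 12, adjusted p = 0.103), Sdha 358 ± 227 against 148 ± 129 CPM (11 of 12, 0.241) and Atp5g1 209 ± 119 against 76.0 ± 32.7 CPM (11 of 12, 0.206).

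Genes outside the rule were read from the same fit. Slc25a3, the mitochondrial phosphate carrier, was the gene of 11 with cytochrome c and carriers to pass, at 1075 ± 306 against 511 ± 410 CPM (log2 fold change 1.42, edgeR adjusted p = 0.0191). Of the 18 genes tested in the citrate cycle list only Mdh1 passed, at 1057 ± 234 against 496 ± 272 CPM (1.13, edgeR adjusted p = 0.0408). Its enzyme is cytosolic and belongs to the malate-aspartate shuttle, not to the cycle itself. Ppargc1a, a coactivator that drives mitochondrial genes, was at 153 ± 112 against 14.2 ± 24.8 CPM (5.42, adjusted p = 0.0288) and was the regulator of 10 that passed. No ribosomal protein gene of 78 passed, and their sum had a log2 ratio of 0.16 ± 0.51.

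Pvalb-like nuclei were set against the remaining GABAergic-like nuclei in 15 vectors. The summed level was higher in Pvalb-like nuclei in 14 of 15 vectors, by 0.33 ± 0.23 on the log2 scale, with AiE0387m the exception. Within library series S40324 the mean was 0.27 (5 vectors) and within S40326 it was 0.32 (9 vectors). Of 83 genes above the minimum, 66 had the higher mean (79.5%, against 47.9% of all genes), while the ribosomal protein sum was higher in only 4 of 15 vectors, with a log2 ratio of -0.15 ± 0.27. The carriers' sum was higher in 15 of 15 vectors, by 0.57 ± 0.37.

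No gene of the 83 passed the edgeR test here, where 0.596% of 8384 genes did; 3 had an unadjusted p under 0.05 (7.08% of all genes) and DESeq2 called 2 (10% of genes), 1 in each direction. Over the 83 the median log2 fold change was 0.19, and over all genes it was -0.45. Cox6a2 was at 135 ± 81.6 CPM against 23.2 ± 30.1 CPM and higher in 14 of 15 vectors, with a log2 fold change of 4.56 ± 1.19 and an adjusted p of 0.074. The exception was hSyn1, with 41.6 CPM in 3 Pvalb-like nuclei against 89.2 CPM. The ranges overlapped, from 20.3 to 334 CPM and from 0 to 89.2 CPM. Against Sst-like nuclei alone, which was not tested, the summed log2 ratio was 0.41 ± 0.26 (higher in 12 of 13 vectors) and Cox6a2 was the gene higher in 13 of 13 vectors, a pattern of 0.138% of genes.

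**Figure D4:**
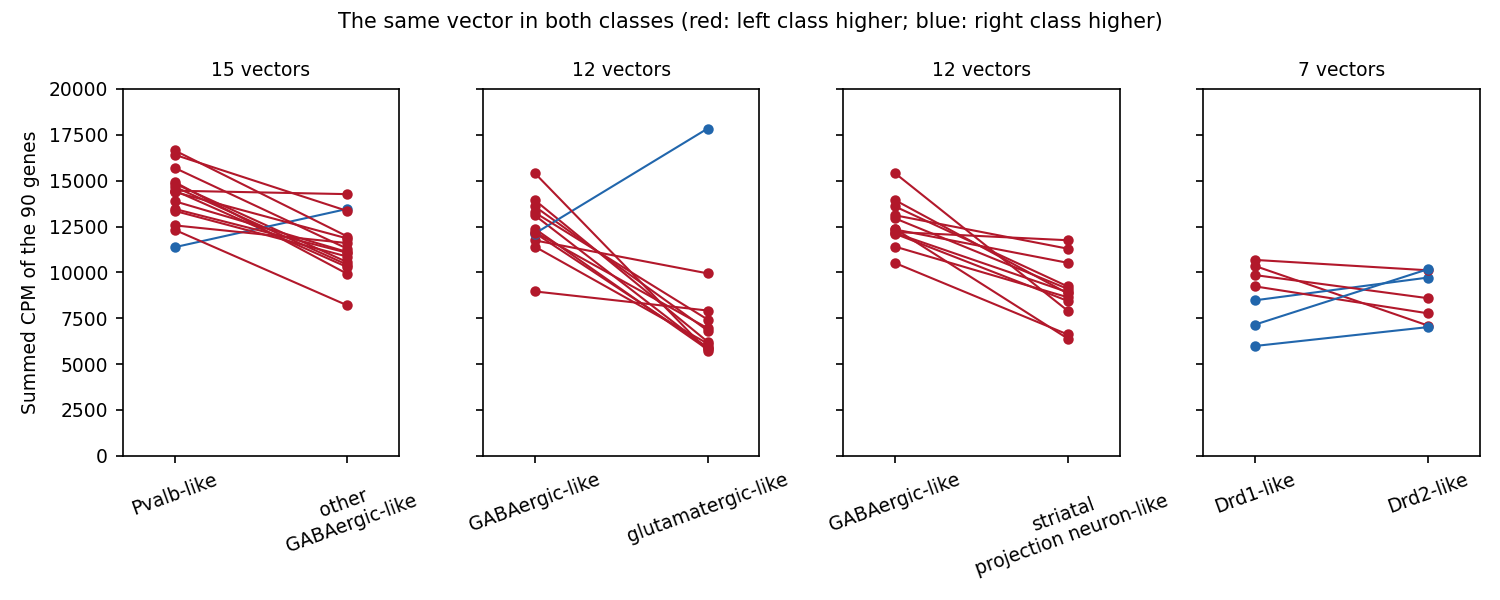
Summed level of the 90 genes in CPM in 2 classes of the same vector, with each line joining the sums of 1 vector, in 4 of the comparisons. Red lines mark vectors in which the left class is higher and blue lines the others. Red holds for 14 of 15 vectors with Pvalb-like on the left, 11 of 12 and 12 of 12 with GABAergic-like on the left, and 4 of 7 with Drd1-like on the left.

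Striatal projection neuron-like nuclei were lower than GABAergic-like nuclei. Their summed level was lower in 12 of 12 vectors, with a mean log2 ratio of -0.52 ± 0.28, and 77 of 84 genes had the lower mean. The other 7 (8.33%) had the higher mean, as did 38.3% of all genes. Complex V (-0.69 ± 0.33) and complex III (-0.63 ± 0.40) were lower in 12 of 12 vectors, and the assembly factors of complex I were lower in only 6. Malat1 was higher in 12 of 12 vectors, by 0.67 ± 0.14, and the log2 ratio of the sum was -0.37 without it and the mitochondrially encoded genes. The ribosomal protein sum was also lower, with a log2 ratio of -0.35 ± 0.46.

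Of 83 genes 1 passed by edgeR, and 8.74% of 9293 genes did, 5.6% lower; 12 of the 83 had an unadjusted p under 0.05, all lower (20.5% of all genes in either direction), and DESeq2 called 19 lower, where it called 31.4% of genes. The median log2 fold change was -0.71 over the 83 and -0.67 over all genes. The gene that fell was Cox6a2, with 0 counts in the striatal sums of all 12 vectors and 52.5 ± 32.1 CPM in GABAergic-like sums (from 10.6 to 102; edgeR adjusted p = 0.00352). A vector outside the comparison, AiE0779m, held 1 striatal nucleus with 28 Cox6a2 counts. Over all nuclei of both classes, that one included, the level was 0.713 against 63.9 CPM, and GABAergic-like nuclei were 89.6-fold higher. Atp5b was also lower in 12 of 12 vectors, at 594 ± 277 against 1203 ± 295 CPM, without passing (adjusted p = 0.0618); 2.55% of genes were lower in every vector. The carriers Slc25a3 (573 ± 233 against 929 ± 163 CPM, adjusted p = 0.0235) and Slc25a4, the ADP/ATP translocase (290 ± 130 against 577 ± 145 CPM, 0.0223), fell, as did Mdh1 (598 ± 324 against 1077 ± 124 CPM, 0.00606).

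Pvalb-like nuclei were also set against the striatal class, in 10 vectors. The sum was higher in Pvalb-like nuclei in 10 of 10 vectors, by 0.64 ± 0.30 on the log2 scale (0.51 without Malat1 and the mitochondrially encoded genes), with complex V at 0.89 ± 0.42 and complex I subunits at 0.57 ± 0.34. By edgeR 1 of 80 genes passed, where 5.39% of 7347 genes did and 2.07% were higher. An unadjusted p under 0.05 was reached by 4, all higher (14.8% of all genes in either direction), and DESeq2 called 6 (20.8% of genes). The 80 had a median log2 fold change of 0.47, and all genes one of -0.03. Cox6a2 was at 140 ± 94.5 CPM (from 20.3 to 334) against 0 in all 10 striatal sums (adjusted p = 0.00102). Over all nuclei, with AiE0779m, it was at 133 against 0.713 CPM, or 187-fold higher.

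Atp5g1 (220 ± 84.3 against 90.4 ± 35.2 CPM, edgeR adjusted p = 0.309), Atp5l, Ndufc2 and Cox6a2 were higher in 10 of 10 vectors, as were 1.66% of genes. Slc25a3 (1222 ± 230 against 596 ± 250 CPM, adjusted p = 0.03) and Mdh1 (1309 ± 319 against 608 ± 357 CPM, 0.0343) were higher. Of the 13 mitochondrially encoded genes only 2 were tested here. One of them, mt-Cytb, a subunit of complex III, went the other way, at 20.2 ± 40.9 against 254 ± 502 CPM (-6.46, edgeR adjusted p = 0.00449). Its SDs exceeded its means, and the call was not followed through the alternative settings. In 9 vectors with both classes, striatal nuclei had a summed log2 ratio of 0.36 ± 0.59 over glutamatergic-like nuclei, and were higher in 8 of 9 with AiE0682h the exception.

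Drd1-like and Drd2-like nuclei, the direct and indirect pathway neurons of the striatum, had close values. Over 7 vectors the summed log2 ratio was 0.02 ± 0.35, with Drd1-like nuclei higher in 4, and 41 of 83 genes had the higher mean in Drd1-like nuclei (49.4%, against 52.8% of all genes). By edgeR none of 78 genes passed, where 0.102% of 6896 genes did; none had an unadjusted p under 0.05 (2.97% of genes did) and DESeq2 called none (3.96% of genes). The 78 had a median log2 fold change of 0.27, and all genes one of 0.59. Leaving out 1 vector moved the mean log2 ratio between -0.07 and 0.11. Both orders occurred, from 10350 against 7101 CPM in AiE0078h to 7149 against 10172 CPM in hI56i.

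Astrocyte-like nuclei were compared with the pooled neurons of the same 8 vectors. The sum did not lean either way, with a log2 ratio of -0.04 ± 0.40 and the higher value in 4 of 8 vectors. Complex IV was higher in 6 of 8 vectors (0.34 ± 0.60) and complex I subunits in 3 of 8 (-0.22 ± 0.50). Neuronal sums of AiE0390m (17938 CPM) and AiE0600m (15149 CPM) were the highest of the class, and their highest nuclei reached 39240.5 and 47707 CPM in these genes. Mitochondrially encoded RNA was higher in astrocyte-like nuclei in 6 of 8 vectors, by 2.87 ± 2.72, and its part in the comparison was not tested beyond leaving out the nuclei above 1%, which gave a summed log2 ratio of -0.0046.

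By edgeR 3 of 84 genes fell in astrocyte-like nuclei and none rose, where 18.9% of 9706 genes passed and 15.3% fell; 7 had an unadjusted p under 0.05, 1 of them higher (33.2% of all genes in either direction), and DESeq2 called 11 (54.2% of genes). The median log2 fold change was -0.45 over the 84 and -2.29 over all genes. Astrocyte-like nuclei also had fewer detected genes, and the part of that in the shift was not tested. Cox6a2 had 0.487 ± 1.38 against 43.7 ± 37.8 CPM (0 of 8 vectors higher, adjusted p = 0.00669). Of the complex I assembly factors, Ndufaf1 had 6.62 ± 18.7 against 31.6 ± 20.6 CPM (1 of 8 higher, adjusted p = 0.01) and Ndufaf8 5.73 ± 16.2 against 11.7 ± 9.52 CPM (1 of 8 higher, adjusted p = 0.0193). Both were at 0 in the median astrocyte-like vector.

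Cox6c was the gene higher in astrocyte-like nuclei in 8 of 8 vectors, as 3% of genes were. It had 608 ± 159 CPM (from 416 to 885, median 567) against 294 ± 97.9 CPM (from 171 to 497, median 268). The 2 ranges overlapped, the log2 fold change was 1.10 ± 0.46 and the edgeR adjusted p was 0.0961. An exon of Vps13b on the opposite strand overlaps Cox6c by 250 bases. Among regulators, Ppargc1b (0.503 ± 1.42 against 48.2 ± 34.9 CPM, adjusted p = 0.00755) and the orphan receptor Esrrg (7.74 ± 14.6 against 41.5 ± 27.5 CPM, 0.0428) fell, and of the ribosomal protein genes Rps27l (4.76 ± 12.7 against 32.4 ± 48.5 CPM, 0.0425).

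Oligodendrocyte-like nuclei were lower than the pooled neurons of the same 7 vectors. The sum was higher in 1 of 7 vectors, AiE0779m, with a log2 ratio of -0.36 ± 0.33. The complex I assembly factors had a log2 ratio of -2.02 ± 1.53 and were lower in 7 of 7 vectors. Among lists outside the rule, the regulators had -2.83 ± 3.25 (the 5 vectors with counts in both classes), complex IV assembly -1.90 ± 3.28, complex III assembly -1.06 ± 1.07 and the citrate cycle genes -0.95 ± 0.51, the last lower in 7 of 7. Complex V (-0.34 ± 0.54) and complex III (-0.22 ± 0.57) were lower in 5 of 7, and the ribosomal protein sum had a log2 ratio of -0.24 ± 0.32.

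By edgeR 17 of 82 genes fell and none rose, a share below the 43.6% of 8117 genes that passed in either direction and the 41.5% that were lower. The median log2 fold change was -3.30 over the 82 and -5.71 over all genes. DESeq2 called 47 lower, where it called 71.8% of genes. Leaving out 1 vector gave 7 to 21 calls, with 7 without AiE0140h, 8 without DLX2.0 and 9 without hI56i. Among the calls were Ndufs3, a core subunit, and 8 other subunits of complex I, 6 of its 8 assembly factors (Ndufaf1, Ndufaf3, Ndufaf4, Ndufaf5, Ndufaf6 and Ndufaf8) and Cox6a2. No gene of complexes II, III or V passed.

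Among the calls with the largest fitted changes, Ndufaf6 had 0 counts in all 7 oligodendrocyte-like sums against 30.2 ± 19.2 CPM (edgeR adjusted p = 0.000464). Over all nuclei it had a count in 0 of 50 oligodendrocyte-like and 84 of 548 neuronal nuclei. Cox6a2 had 0 against 37.7 ± 33.4 CPM (adjusted p = 0.00055), with a count in 0 of 50 and 73 of 548 nuclei. Ndufb2 had 1.28 ± 3.18 against 87.9 ± 29.9 CPM and was lower in 7 of 7 vectors (0.00378). Ndufaf5, which hydroxylates Ndufs7, had 6.35 ± 16.8 against 62.3 ± 48.4 CPM (0.00561).

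A single vector set the oligodendrocyte-like mean of Ndufs6, another of the calls. Ndufs6 had 39.1 ± 103 CPM in oligodendrocyte-like against 30.9 ± 21.98 CPM in neuronal sums, with 1 oligodendrocyte-like vector at 274 and a median of 0 CPM. Ndufaf4, by contrast, was lower in 7 of 7 vectors, at 38.4 ± 57.7 against 228 ± 50.3 CPM (edgeR adjusted p = 0.0281). Ndufb3 was too, at 11.9 ± 16.1 against 90.1 ± 19.6 CPM (adjusted p = 0.0397). Ndufs7 was higher in 7 of 7 vectors, as were 1.76% of genes, and did not pass. Of the assembly factors tested for other complexes, those that fell were 4 of 6 for complex III, 6 of 12 for complex IV and 2 of 4 for complex V, where 41.5% of all genes did. For complex V the summed level of these factors was higher in 5 of 7 vectors, with a log2 ratio of 0.45 ± 0.79 over the 6 with counts in both classes. Lower by test were also 8 of 18 citrate cycle genes, 5 of 6 regulators and 19 of 74 ribosomal protein genes.

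**Figure D5:**
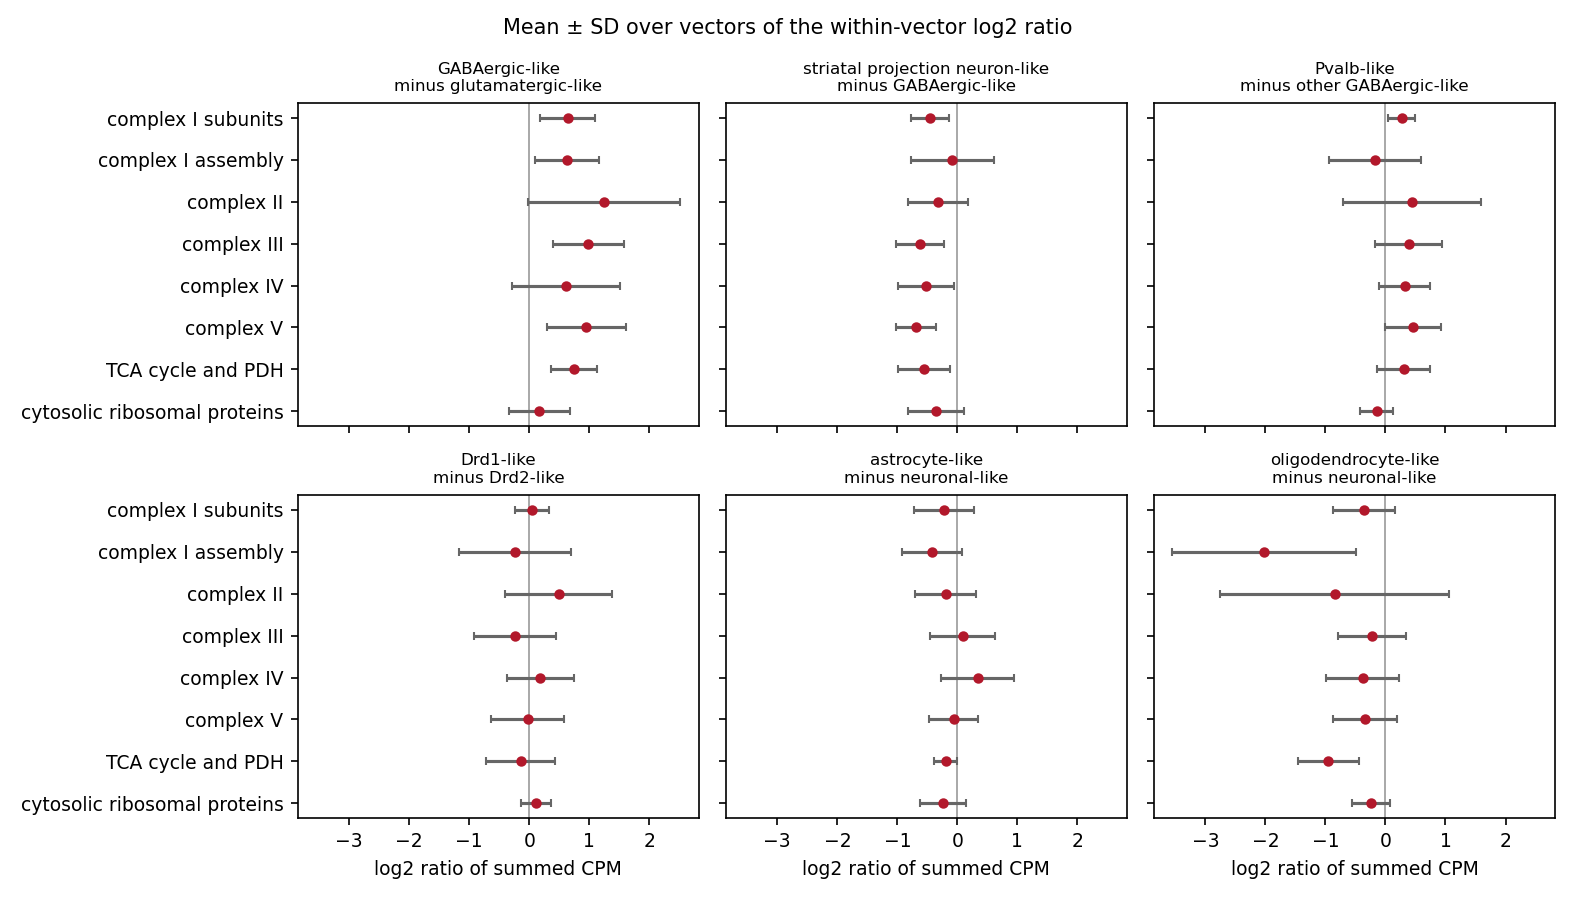
Mean log2 ratio of the summed level (x axis) for each complex and for comparison lists (y axis), in 6 comparisons between classes, with bars for the SD over vectors. Ratios of the complexes lie to the right of 0 for GABAergic-like over glutamatergic-like nuclei, near 0 for Drd1-like over Drd2-like nuclei, and the complex I assembly factors reach -2.02 for oligodendrocyte-like over neuronal nuclei.

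Promoters were read to see which recognition letters the genes share, using RefSeq windows on GRCm38.p6 from 250 bases before to 50 after the gene start. Of the 90 genes 73 had a window; Ndufaf6, Cox4i1, Cox6a2, Cox6c and Atp5a1 were among those with none. Both strands were searched for GCGCATG, letters bound by the factor NRF1, which were in 15 of 73 windows (20.5%), against 4.04% of 27025 windows of all genes and 11.1% of 63 ribosomal protein windows. CCGGAAG, the core of ETS sites such as those of GABPA, was in 17 (23.3%), against 9.12% and 39.7%. GATGGCG, letters of YY1, was in 11 (15.1%), against 3.66% and 7.94%. AAGGTCA, letters bound by the ERR receptors, was in 8 (10.96%), against 4.66% and 6.35%: Ndufb2, Ndufb4, Ndufs5, Sdhd, Atp5e, Atp5g3, Atp5k and Atp5l. TATAAA was in 7 (9.59%), against 14.2% and 9.52%. The windows had a median GC content of 58.7%, against 52.7% of all windows, and 20 CpG against 7, and such letters are frequent in GC-rich promoters of many genes. A match is no evidence of binding.

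The 250 bases before the start are given for Cox6a1, the general isoform beside Cox6a2 (chr5:115348959-115349208, minus strand), for Sdhd, higher in GABAergic-like nuclei (chr9:50603850-50604099, minus strand), and for Atp5g3, the leading gene of the c subunit (chr2:73911327-73911576, minus strand). They are written 5′ to 3′ on the gene's strand, and capitals mark letters of the motifs on either strand: an overlapping pair of NRF1 letters and an ETS core in Cox6a1, an ETS core in Sdhd, and the ERR letters in Atp5g3.
Cox6a1: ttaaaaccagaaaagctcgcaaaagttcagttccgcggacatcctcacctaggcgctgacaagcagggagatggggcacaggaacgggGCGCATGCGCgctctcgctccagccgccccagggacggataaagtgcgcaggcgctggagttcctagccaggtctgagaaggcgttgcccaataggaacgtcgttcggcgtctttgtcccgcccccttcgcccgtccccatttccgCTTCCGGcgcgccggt
Sdhd: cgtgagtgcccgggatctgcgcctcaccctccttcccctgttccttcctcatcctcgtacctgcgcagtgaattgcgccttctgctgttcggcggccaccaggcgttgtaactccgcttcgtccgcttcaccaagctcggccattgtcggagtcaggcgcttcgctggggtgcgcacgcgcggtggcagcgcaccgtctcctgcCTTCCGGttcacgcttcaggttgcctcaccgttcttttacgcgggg
Atp5g3: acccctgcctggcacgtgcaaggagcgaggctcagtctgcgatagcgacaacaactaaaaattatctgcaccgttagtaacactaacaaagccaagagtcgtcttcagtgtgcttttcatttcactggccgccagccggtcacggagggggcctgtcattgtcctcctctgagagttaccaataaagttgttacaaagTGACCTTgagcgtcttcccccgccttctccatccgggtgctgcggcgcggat
The ERR letters of Sdhd and the YY1 letters of Cox6a1 are not within the 250 bases printed but in the window that runs 50 bases past the start.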

How the data were processed

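The authors deposited a table of read counts (whole numbers, 32285 genes), and 800 of its 2501 columns matched labelled nuclei by library name; the other 1701 were not analysed here. Per the submitters' processing notes, STAR 2.7.2a and mm10 were used. Neither the annotation nor the counting rule is given in the sources used here. Per the labels, libraries were made with SMART-Seq v4, which keeps neither molecule barcodes nor strand, so values count reads and grow with transcript length. Gene lists, members and tests were chosen with earlier results of these data known. The genes named are isoform sets, complex II, the 3 highest of each complex, and in each comparison those past the threshold (the 5 with the largest change where over 10 passed); some items are not reported here.

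Nuclei with at least 1000 genes were clustered with scanpy 1.11.5 (2000 variable genes, 30 components, 15 neighbours, resolution 1) without the 256 list genes and named from fixed markers. Subclasses came from each nucleus's own markers, with a log2 lead of at least 1, in place of the planned subclustering, a choice made after seeing the data. No doublet caller was run. Sums of at least 3 nuclei per class and vector were tested in edgeR 4.0.16 (R 4.3.3, TMM, filterByExpr), with DESeq2 1.42.0, RLE scaling, other filters and left-out vectors as alternatives. Log2 ratios of summed levels had no pseudocount and left out a vector with a sum of 0 in either class. Subclass leads were on log2(CPM + 1). The edgeR procedure was tried on simulated data for GABAergic-like against glutamatergic-like and Pvalb-like against other GABAergic-like nuclei. The simulation had no differences between vectors and a capped spread, so it does not show how the test performs on the real sums.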

Additional observations from a re-analysis of the deposited data

How the results depend on the processing

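The number of these genes that passed depended on the test. With DESeq2 it was 15 in place of 2 for GABAergic-like against glutamatergic-like nuclei, 19 in place of 1 for striatal projection neuron-like against GABAergic-like, 2 in place of 0 for Pvalb-like against other GABAergic-like, 6 in place of 1 for Pvalb-like against striatal, 11 in place of 3 for astrocyte-like and 47 in place of 17 for oligodendrocyte-like against neuronal nuclei. Other settings that moved a count by over 1.5 times gave the following. GABAergic-like against glutamatergic-like nuclei had 4 with a minimum of 500 genes, 4 with classes from each nucleus's own markers, 4 without nuclei above 1% mitochondrially encoded counts (added after seeing the data), and 0 without the vector as a replicate block, with runs of 8 nuclei as the unit or within library series S40326. Striatal against GABAergic-like nuclei had 2 with RLE size factors, 2 with no filter beyond 1 count, 4 with a minimum of 500 genes, and 0 with runs of 8 or within S40326. Pvalb-like against other GABAergic-like nuclei had 1 with no filter, by own markers and with runs of 8. Pvalb-like against striatal nuclei had 2 with RLE factors and with no filter, and 0 with runs of 8 or within S40326. Astrocyte-like nuclei had 0 with runs of 8 and within S40324 or S40326. Oligodendrocyte-like nuclei had 11 by own markers, 3 without the block, 0 with runs of 8 and within S40324, and 1 within S40326. Leaving out 1 vector gave 1 to 3 (1 without AiE0078h, AiE0140h, AiE0447h, AiE0450h, AiE0452h, AiE0475m, AiE0682h, AiE0743m_3xC2, hI56i or hSyn1, each alone), 1 to 2 (2 without AiE0447h), 0 to 1 (1 without hSyn1), 1 to 2 (2 without AiE0387m), 2 to 4 and 7 to 21 (7 without AiE0140h, 8 without DLX2.0, 9 without hI56i) in the order of these comparisons, and 0 to 0 for Drd1-like against Drd2-like nuclei.

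No gene followed through the alternatives reversed. Cox6a2 kept its call in 20 of 20 alternatives that tested it in striatal against GABAergic-like nuclei and in 18 of 18 against Pvalb-like nuclei. In both of these comparisons it was not tested with runs of 8 nuclei as the unit or within series S40326. For GABAergic-like against glutamatergic-like nuclei Cox6a2 lost 2 of 21 (no block and series S40326). In that comparison Sdhd lost 14 of 21, with an edgeR or DESeq2 adjusted p from 3.8e-07 to 0.535, Ppargc1a 9 of 22, Mdh1 11 of 22 and Slc25a3 4 of 22. In striatal against GABAergic-like nuclei Slc25a4 lost 7 of 22, Slc25a3 6 of 22 and Mdh1 1 of 22, and against Pvalb-like nuclei Slc25a3 lost 11 of 20 and Mdh1 9 of 20. Astrocyte-like calls lost 1 of 17 (Cox6a2), 4 of 18 (Ndufaf1) and 7 of 15 (Ndufaf8). Oligodendrocyte-like calls lost from 1 of 16 (Ndufaf6) to 11 of 17 (Ndufb6), with Ndufb2 at 4 of 17, Ndufs3 and Ndufaf4 at 8 of 17 and 8 of 18, and Ndufb3 at 10 of 17.

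Summed levels kept their order of Pvalb-like over Sst-like over striatal nuclei without Malat1 and mitochondrially encoded genes, at 16663 CPM in Pvalb-like, 12881 in Sst-like, 13597 in other GABAergic-like, 14514 in GABAergic-like, 11454 in Drd1-like, 10891 in Drd2-like, 11489 in striatal, 13889 in astrocyte-like nuclei, and 9577 in the oligodendrocyte-like class. Astrocyte-like nuclei, which were below Sst-like nuclei in the main sums, stood above them at this setting. Oligodendrocyte-like nuclei by their own markers had 9443 CPM. All 176 alternative log2 ratios of the sums moved by less than the SD over vectors. Sums were paired by their vector label. The depth of 1 nucleus does not show genes near 0, and a class mean over 7 to 15 vectors with SDs near the mean cannot show small differences of single genes.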
